A study of Mus musculus with 5 samples.

Results

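The 10 claudin genes Cldn2, Cldn3, Cldn4, Cldn6, Cldn7, Cldn8, Cldn10, Cldn14, Cldn16 and Cldn19 were followed through bulk RNA sequencing of mouse kidneys at embryonic day 15.5. They were chosen by name from the 32793 gene symbols of the deposited tables, all 10 were found there, and they were grouped by the nephron segment in which each is best known. NICD_mut kidneys (2 libraries) carried Six2TGC/+, a transgenic Six2 driver of Cre in nephron progenitors, with RosaN1ICD∆PEST, a Rosa26 allele from which Cre releases activated Notch1 without its PEST domain. NICD_wt kidneys (3 libraries) carried RosaN1ICD∆PEST alone. The driver was thus present in every NICD_mut library and in no NICD_wt library, and what it does by itself cannot be told apart from what activated Notch1 does. Whether the libraries stem from different animals is not stated in the labels, and the p-values therefore describe the spread among these 5 libraries, part of which may be technical.

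Claudins are membrane proteins that join neighbouring epithelial cells at the tight junction and decide which ions and how much water pass between the cells. Each nephron segment makes its own combination, and that combination sets whether the segment is leaky to cations, leaky to anions or nearly sealed. The proximal tubule is leaky, the thick ascending limb of the loop of Henle lets calcium and magnesium pass, and the collecting duct is tight.

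NICD_mut kidneys had more transcript of the proximal claudin Cldn2 and slightly more of Cldn7. They had very little transcript of the loop claudins Cldn16 and Cldn19, and less of the collecting duct claudin Cldn8, of Cldn3 and of the embryonic claudin Cldn6. Of the 10 members 9 had enough counts to be tested, and of those 2 rose, 5 fell and 2 did not pass (quasi-likelihood test of edgeR, p-values adjusted by Benjamini-Hochberg over 15885 genes, threshold 0.05). In the same test 47.7% of all tested genes were called, 23% higher and 24.8% lower in NICD_mut. NICD_mut and NICD_wt did not overlap in 7 of the 9 members and in 67.2% of all tested genes, 32.9% with NICD_mut above and 34.2% with NICD_mut below. Against a minimum change of 1.5-fold 1 member rose and 4 fell, where 10.7% of all tested genes were called, 6.28% higher and 4.39% lower. With replicate number as a block the members' counts were again 2 and 5, where 34.8% of all tested genes were called, 16.7% higher and 18.1% lower. The median log2 fold change, NICD_mut minus NICD_wt, was -0.80 over the 9 members and 0.01 over all tested genes. Levels are counts scaled to the library's summed counts of the tested genes and its TMM factor (CPM), with mean ± SD where averaged. Log2 fold changes carry their standard error (SE). In whole-kidney RNA, fewer cells of a type and less RNA per cell cannot be told apart.

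Libraries held 17361823 to 21356447 counts. Notch1, whose count can include reads from the transgene, was at 288 and 324 CPM in NICD_mut and at 120 to 142 CPM in NICD_wt, in the direction of the labels. NICD_mut 1 stood apart by skeletal muscle transcripts: 8 muscle genes summed to 3063 CPM there and to 15.3 CPM in NICD_mut 2. In NICD_wt 1 they summed to 131 CPM, and in NICD_wt 2 and NICD_wt 3 to 5.75 and 6.79 CPM. NICD_mut 1 also held more urothelium transcripts, which are taken up with the collecting duct claudins. Values without NICD_mut 1 are given where they move a result.

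**Figure D1:**
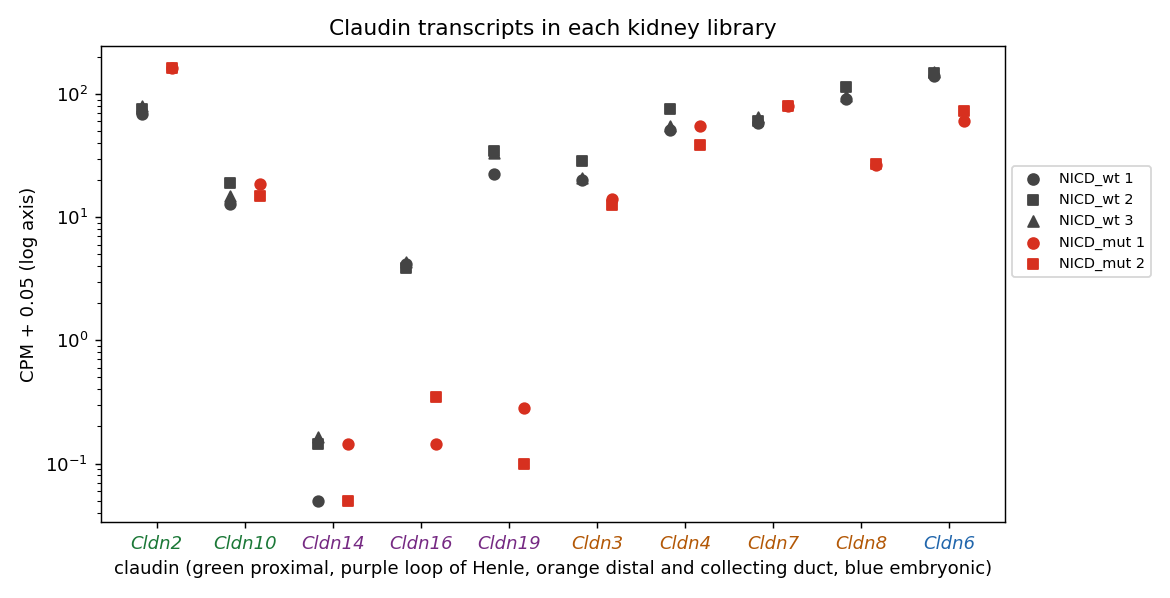
Level of each of the 10 claudins in each library as CPM plus 0.05 on a log axis, NICD_wt in dark grey and NICD_mut in red, 1 point per library. Cldn2 and Cldn7 lie higher in both NICD_mut libraries, Cldn16 and Cldn19 drop to under 0.3 CPM there, and the groups overlap for Cldn4, Cldn10 and Cldn14.

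Cldn2, which forms a channel for sodium and water between proximal tubule cells, rose. It lies on chromosome X (mm10, 139800828 to 139811386, plus strand). Its level was 164 and 162 CPM in the NICD_mut libraries and 68.4, 75.7 and 80.7 CPM in the NICD_wt libraries. Both NICD_mut values were close together and above every NICD_wt value. The change was 2.18-fold, a log2 fold change of 1.12 (SE 0.07; edgeR, adjusted p = 9.58e-06). The 19 proximal tubule markers beside it had a median of 1.04, with 12 higher, 4 lower and 3 that did not pass. Among them the glucose transporter Slc5a2 rose by 1.60 (SE 0.14), and the phosphate transporter Slc34a1 rose from 146 to 172 CPM in NICD_wt to 308 and 324 CPM in NICD_mut. Hnf4a, a transcription factor of the proximal tubule, rose by 0.62 (SE 0.12). The 4 lower markers were Slc13a3 at -3.17 (SE 0.46), Cubn at -0.87 (SE 0.24), Fbp1 at -0.57 (SE 0.19) and Slc22a6 at -0.45 (SE 0.14).

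Activated Notch1 acts on genes through the DNA-binding protein RBPJ, whose sites hold the core TGGGAA, so the stretch before the start is shown for Cldn2, Cldn16 and Cldn19, and a shorter one for Cldn6. RefSeq sequences (GRCm38.p6) from 250 bases before to 50 bases after each start were at hand for 9 of the 10 members, in 14 windows; the member without one was Cldn8. TGGGAA, on either strand, occurred in 6 of these 14 windows and in 25.6% of all 32851 windows. The matching windows belonged to Cldn2, Cldn6, Cldn7, Cldn10 and Cldn14. Among these are members that rose, that fell, that did not pass and that were not tested. The TATA box letters TATAAA, on either strand, occurred in 1 of the 14, that of Cldn2, and in 13.6% of all windows. A match of letters is a description and not a site of binding. The bases just before the start of Cldn2 are printed 5′ to 3′ on the plus strand, with TATAAA, 35 bases before the start, in capitals; its TGGGAA match lay on the other strand, 29 bases after the start, outside the printed stretch.
Cldn2 (chrX:139800608-139800807): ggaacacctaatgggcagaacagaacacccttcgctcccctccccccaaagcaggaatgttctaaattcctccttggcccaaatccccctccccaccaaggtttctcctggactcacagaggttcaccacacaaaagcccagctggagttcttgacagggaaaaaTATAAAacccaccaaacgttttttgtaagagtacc

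Cldn10 is made from alternative first exons as a form of the proximal tubule that prefers anions and a form of the thick ascending limb that prefers cations, and the deposited tables give 1 value for both. It spans chromosome 14 from 118787908 to 118875489 (plus strand), and its RefSeq starts lie 67.1 kb apart. Its level was 18.5 and 14.8 CPM in NICD_mut against 12.7, 19.1 and 14.7 CPM in NICD_wt. The groups overlapped, and the log2 fold change of 0.10 (SE 0.19) did not pass (edgeR, adjusted p = 0.677). Without NICD_mut 1 and NICD_wt 1 it was -0.20 (SE 0.19) and did not pass either. How each form moved was not tested.

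The ratio of Cldn2 to Cldn10 counts within a library needs no scaling between libraries; its size depends on the lengths of both transcripts, and here it serves to compare the groups. It was 8.87 and 10.9 in NICD_mut and 5.37, 3.96 and 5.48 in NICD_wt, without overlap. An exact permutation test over 2 against 3 libraries gave a 2-sided p of 0.2, also adjusted over the 5 claudin ratios computed. This p is the smaller 1-sided p times 2, and 0.2 is the smallest value that this definition allows with so few libraries, so the test cannot pass.

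The loop of Henle claudins Cldn16 and Cldn19, which together form the path for calcium and magnesium in the thick ascending limb, both fell steeply. Cldn19 (chromosome 4, 119255414 to 119262438, plus strand) was represented by 5 and 1 counts in NICD_mut and by 443, 743 and 574 in NICD_wt. In CPM this was 0.235 and 0.0493 against 22.3, 34.8 and 33.0, with every NICD_mut value far below every NICD_wt value. The log2 fold change was -7.64 (SE 0.45; edgeR, adjusted p = 4.5e-05). Resting on 6 counts in NICD_mut, its size is loosely set: it was -9.08 without NICD_mut 1 and -6.97 without NICD_mut 2. On the log2(TPM + 1) scale, which understates the change of low genes, limma gave -4.19 (SE 0.24) for Cldn19 and -2.47 (SE 0.19) for Cldn16, both lower and passing.

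Cldn16 (chromosome 16, 26463135 to 26482765, plus strand) was represented by 2 and 6 counts in NICD_mut and by 82, 82 and 75 in NICD_wt. Its level was 0.195 ± 0.143 CPM (SD, n = 2) against 4.09 ± 0.241 CPM (SD, n = 3), without overlap. The log2 fold change was -4.36 (SE 0.48; edgeR, adjusted p = 0.000125), and -3.76 without NICD_mut 1 and -5.36 without NICD_mut 2. The library with more Cldn16 counts was the one with fewer Cldn19 counts, and with so few counts the balance of these partners in NICD_mut could not be measured.

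Cldn14, which closes the path formed by Cldn16 and Cldn19 and is switched on by the calcium-sensing receptor, was hardly detected in either group. It had 2 and 0 counts in NICD_mut and 0, 2 and 2 in NICD_wt, and it did not enter the test. The ratio NICD_mut over NICD_wt of the summed counts was 0.702, with an exact 95% counting interval of 0.0635 to 4.90 that covers counting error only, so a change was not detectable at this depth.

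Among 15 loop of Henle markers 13 passed as lower and 1 as higher, and their median log2 fold change was -4.76. The higher one was Ptger3 at 1.59 (SE 0.25), and Egf at -0.90 (SE 0.45) did not pass. The potassium channel Kcnj1 was at -7.49 (SE 0.53), Umod, the main urinary protein made there, at -4.85 (SE 0.39) and Casr, the calcium-sensing receptor, at -5.51 (SE 0.79). In NICD_mut Kcnj1 had 5 and 0 counts, Umod 8 and 5 and Casr 7 and 0, so these sizes are loosely set as well. Cldn16 lay near the median of the loop markers and Cldn19 below it. The bases before the starts of both loop claudins, plus strand, are printed for comparison with Cldn2. The Cldn19 stretch is shorter, at 173 bases. It ends just before the gene start given above, 119255414, and does not reach the RefSeq start, 119255441. Neither the Cldn16 nor the Cldn19 stretch holds TGGGAA or TATAAA on either strand.
Cldn16 (chr16:26462935-26463134): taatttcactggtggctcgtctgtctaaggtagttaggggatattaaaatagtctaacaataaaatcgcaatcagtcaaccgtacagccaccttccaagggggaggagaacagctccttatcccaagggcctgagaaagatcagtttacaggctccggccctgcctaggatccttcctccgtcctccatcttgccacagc
Cldn19 (chr4:119255241-119255413): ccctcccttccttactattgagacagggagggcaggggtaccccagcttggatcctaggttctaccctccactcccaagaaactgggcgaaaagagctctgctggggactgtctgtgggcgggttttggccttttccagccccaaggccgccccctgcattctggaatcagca

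The claudins of the distal tubule and collecting duct did not move together: Cldn8 and Cldn3 fell, Cldn7 rose and Cldn4 did not pass. Cldn8, which brings Cldn4 to the junction for chloride uptake in the collecting duct, lies on chromosome 16 (88560828 to 88563183, minus strand). Its level was 26.6 and 27.2 CPM in NICD_mut against 91.1, 114 and 96.5 CPM in NICD_wt. Both NICD_mut libraries were far below all NICD_wt libraries, 3.74-fold lower on average. The log2 fold change was -1.90 (SE 0.10; edgeR, adjusted p = 4.07e-06).

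Cldn7, a claudin of the side and base of distal and collecting duct cells whose loss makes mice lose salt, lies on chromosome 11 (69964779 to 69967885, plus strand). It was at 79.6 and 80.1 CPM in NICD_mut against 57.8, 60.8 and 65.0 CPM in NICD_wt. The groups did not overlap, but the change was small: 1.30-fold, a log2 fold change of 0.38 (SE 0.07; edgeR, adjusted p = 0.00195). Against a minimum change of 1.5-fold it did not pass (edgeR glmTreat, adjusted p = 1).

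The balance of Cldn7 to Cldn8 shifted in both NICD_mut libraries. The ratio of their counts, Cldn7 over Cldn8, was 2.99 and 2.95 in NICD_mut and 0.635, 0.535 and 0.673 in NICD_wt, a log2 difference of 2.28 (exact permutation test, 2-sided p = 0.2, the smallest it can give). The NICD_mut libraries gave nearly the same ratio, far above the 3 NICD_wt ratios.

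Cldn3 is a sealing claudin, and it and Cldn4 are neighbours on chromosome 5, on opposite strands with 39.3 kb between them. Cldn3 (134986214 to 134987472, plus strand) was at 14.1 and 12.5 CPM in NICD_mut against 20.1, 28.5 and 20.8 CPM in NICD_wt, all lower in NICD_mut. Its log2 fold change was -0.80 (SE 0.17; edgeR, adjusted p = 0.00483), and against a minimum of 1.5-fold it did not pass (edgeR glmTreat, adjusted p = 0.227). Cldn4 (134945119 to 134946934, minus strand) was at 55.4 and 38.5 CPM in NICD_mut against 51.3, 76.2 and 55.4 CPM in NICD_wt. Its groups overlapped, and the log2 fold change of -0.38 (SE 0.26) did not pass (edgeR, adjusted p = 0.306). The ratio of Cldn3 to Cldn4 counts was 0.255 and 0.326 in NICD_mut and 0.375 to 0.392 in NICD_wt, without overlap (exact permutation test, 2-sided p = 0.2, the smallest it can give).

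Cldn4 is also made by the urothelium of the renal pelvis. The 7 urothelium markers summed to 75.1 CPM in NICD_mut 1, 18.0 CPM in NICD_mut 2 and 21.6 to 38.0 CPM in NICD_wt, and none was at 0 in any library. In the edgeR quasi-likelihood test 0 of these 7 passed, 0 had an unadjusted p under 0.05, and DESeq2, limma-voom and limma on TPM also called 0. In NICD_mut 1 each of these markers lay above every NICD_wt library. In NICD_mut 2 Upk1b, Upk2, Upk3a and Trp63 lay below every NICD_wt library, and Upk1a, Krt5 and Krt20 lay within the NICD_wt range. Cldn4 was higher in NICD_mut 1, the library with more urothelium transcripts, than in NICD_mut 2, and its log2 fold change was -0.67 without NICD_mut 1 and -0.15 without NICD_mut 2, not passing in either. Cldn7, Cldn8 and Cldn3 changed in the same direction and passed with either NICD_mut library left out, at 0.39, -1.89 and -0.89 without NICD_mut 1 and 0.37, -1.93 and -0.73 without NICD_mut 2. The part of the urothelium in the Cldn4 values was not tested.

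Among 17 collecting duct markers 14 passed as lower and 1 as higher, and their median log2 fold change was -1.51. The higher one was Krt8 at 0.73 (SE 0.11). Slc4a1 at 0.85 (SE 0.47) and Krt18 at -0.33 (SE 0.12) did not pass. The sodium channel subunit Scnn1g was at -1.78 (SE 0.16) and the water channel Aqp2 at -6.04 (SE 1.08), with Cldn8 near the first. Aqp2 had 17 and 0 counts in NICD_mut, so the size of its change is loosely set. Of 9 tested distal tubule markers 5 fell, 0 rose and 4 did not pass, with a median of -3.03.

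**Figure D2:**
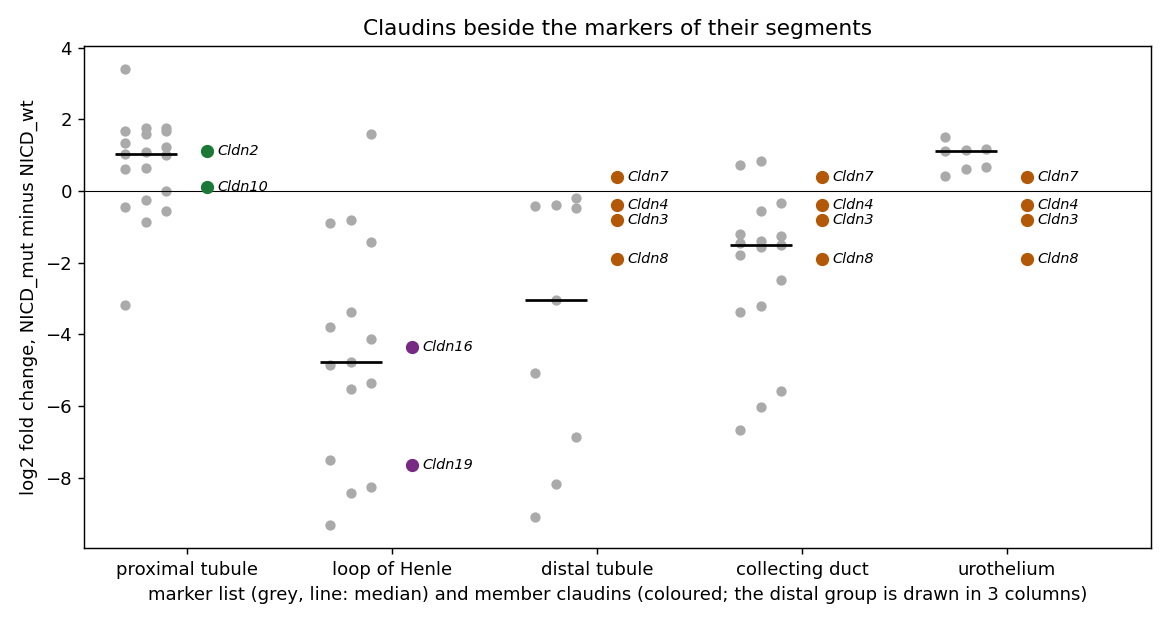
Log2 fold change of each tested marker gene of 5 lists (grey points, black line for the median) beside the tested claudins of the same or nearest segment (coloured, the 4 distal claudins repeated in 3 columns). Cldn2 sits at the proximal median of 1.04 and Cldn16 near the loop median of -4.76, while Cldn7, Cldn4 and Cldn3 lie above the collecting duct median of -1.51.

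Cldn6, a claudin of embryonic epithelia that fades as the kidney matures, was the most abundant member per transcript length in NICD_wt and fell. It lies on chromosome 17 (23679249 to 23682446, plus strand). Its level was 61.0 and 73.6 CPM in NICD_mut against 142, 149 and 151 CPM in NICD_wt. The groups were well apart, with a log2 fold change of -1.13 (SE 0.09; edgeR, adjusted p = 1.89e-05). Most markers of nephron progenitors and of the ureteric tip, cell types of the embryonic kidney, were also lower. Among 8 nephron progenitor markers 7 passed as lower and 0 as higher, with a median of -3.56 and a summed level of 88.6 and 51.7 CPM in NICD_mut against 686 to 705 CPM in NICD_wt. Among 7 ureteric tip markers 5 passed as lower and 1 as higher, with a median of -2.03 and a summed level of 84.0 and 53.5 CPM against 331 to 347 CPM. No marker of either list was at 0 in any library, and their part in the Cldn6 values was not tested.

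A TGGGAA match lay 106 bases before the RefSeq start of Cldn6, inside the first exon of a GENCODE transcript; the 30 bases around it, plus strand, are printed with the match in capitals.
Cldn6 (chr17:23679247-23679276): ctaagggaacttTGGGAAacgcacgcaggt

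Cldn9, a close relative of Cldn6 and not among the 10 members, ends 137 bases from it on the opposite strand. It was at 0.657 and 0.493 CPM in NICD_mut against 19.6, 18.5 and 18.8 CPM in NICD_wt, which was -5.03 on the log2 scale (SE 0.20; edgeR, adjusted p = 7.28e-07). The ratio of Cldn6 to Cldn9 counts was 92.9 and 149 in NICD_mut against 7.23, 8.07 and 8.03 in NICD_wt (exact permutation test, 2-sided p = 0.2, the smallest it can give). Whether the authors' counting used strand is not given in the sources used here.

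**Figure D3:**
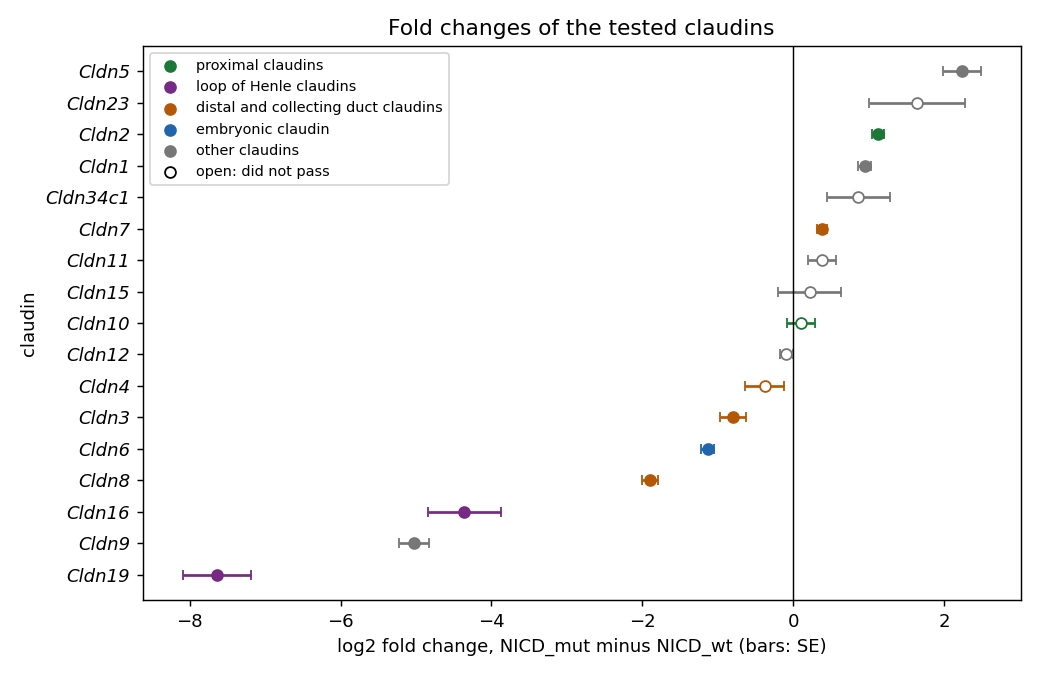
Log2 fold change of the tested claudins with SE bars, coloured by group, filled where the edgeR test passed. Members run from Cldn19 at -7.64 to Cldn2 at 1.12, and Cldn5 and Cldn9, which are not members, lie at 2.24 and -5.03.

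TPM values, which scale for transcript length as well as for the library's total, allow levels of different claudins to be set side by side. In NICD_wt the order was Cldn6 (182 ± 7.49 TPM, SD, n = 3), Cldn7 (89.9 ± 5.58), Cldn8 (73.8 ± 8.83), Cldn4 (60.6 ± 13.6), Cldn2 (47.2 ± 6.32), Cldn3 (35.7 ± 7.69), Cldn10 (28.6 ± 6.13), Cldn19 (20.1 ± 5.22), Cldn16 (7.03 ± 0.375) and Cldn14 (0.243 ± 0.214). From Cldn8 down to Cldn10 the ranges of each neighbouring pair overlapped, while the order within each of the 3 libraries was the same for every pair. In NICD_mut the order was Cldn7 (129 ± 4.03 TPM, SD, n = 2), Cldn2 (109 ± 13.5), Cldn6 (90.5 ± 10.01), Cldn4 (50.9 ± 14.2), Cldn10 (31.2 ± 4.81), Cldn3 (22.3 ± 2.28) and Cldn8 (21.5 ± 0.276), followed by Cldn16, Cldn14 and Cldn19. Cldn3 and Cldn8 overlapped there, as did the last 3. Cldn6 went from first to the third place and Cldn8 from the third to the seventh.

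The 10 members summed to 476 and 435 TPM in NICD_mut and 494, 601 and 542 TPM in NICD_wt, lower in both NICD_mut libraries. They made up 38.8 and 29.1% of the TPM of all 31 claudins of the table in NICD_mut against 63.1, 65.7 and 65.3% in NICD_wt. Cldn5, the claudin of endothelium and a known podocyte claudin, accounted for 43.5 and 58.3% in NICD_mut against 15.5 to 17.2% in NICD_wt. Cldn5 rose by 2.24 log2 (SE 0.25; edgeR, adjusted p = 0.00398), with 362 and 609 CPM against 101 to 105 CPM. Beside it all 7 endothelial markers rose, at a median of 0.64, and 8 of 9 podocyte markers rose and 1 fell, at a median of 1.34; their part in the Cldn5 values was not tested.

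**Figure D4:**
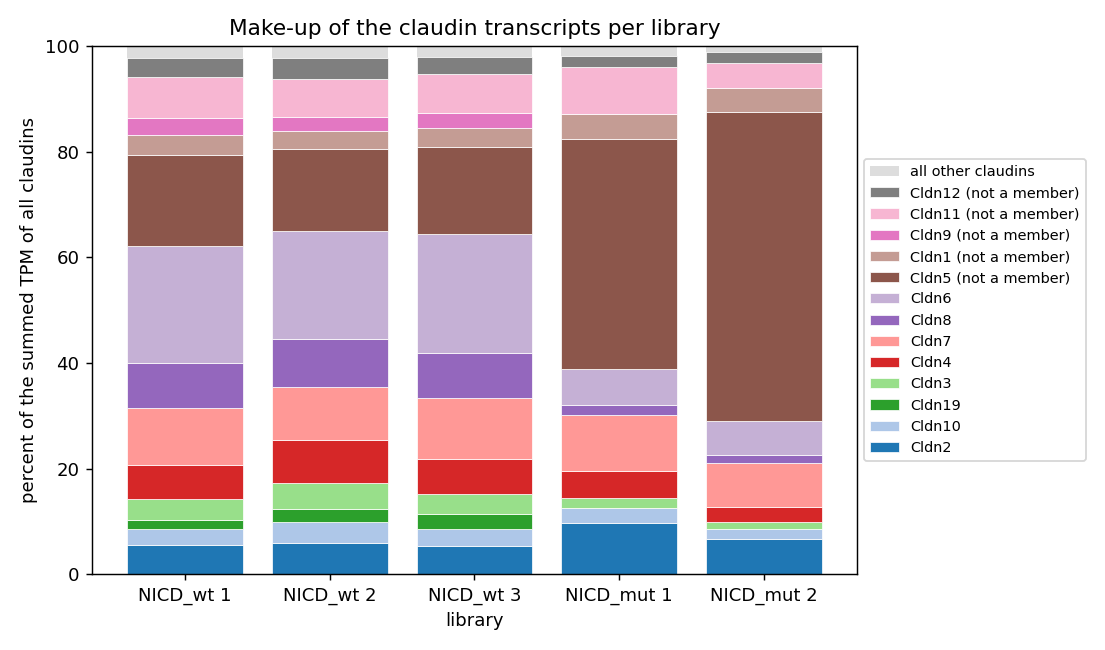
Share of each claudin in the summed TPM of all claudins, in percent, 1 bar per library. Members are stacked from the bottom; Cldn14 and Cldn16 are counted with all other claudins. Cldn6 shrinks from 20.4 to 22.5% in NICD_wt to 6.81 and 6.54% in NICD_mut, and Cldn5 widens to 43.5 and 58.3%.

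The table also holds Cldn34b3, Cldn34b4 and Cldn34c4, listed at 0 in all 5 libraries, and 20 other claudin and claudin-domain genes. Of those 20, 9 were tested, of which 2 rose, 1 fell and 6 did not pass, where 47.7% of all tested genes were called. Those that passed were Cldn5, Cldn9 and Cldn1. Cldn1, which marks the cells lining Bowman's capsule, rose by 0.95 (SE 0.09), with 102 and 125 CPM in NICD_mut against 56.9 to 61.7 CPM in NICD_wt. It lies 91.3 kb from Cldn16, which fell.

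Tight junctions also need scaffold and membrane partners of the claudins. Of 22 tight junction partners 10 rose, 4 fell and 8 did not pass, with a median of 0.19. Over all tested genes 23% were called higher and 24.8% lower. Cgnl1, a junction protein linked to the cytoskeleton, rose from 119 to 120 CPM in NICD_wt to 219 and 259 CPM in NICD_mut. The scaffold gene Tjp1 rose by 0.36 (SE 0.06), while the scaffold Tjp3 fell by 0.97 (SE 0.11) on the log2 scale. Ildr2, a gene of the junction where 3 cells meet, rose by 0.83 (SE 0.12).

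Of 13 genes of epithelia in general 7 passed as lower, 2 as higher and 4 did not pass, with a median of -0.36. Their summed level overlapped between the groups, at 1443 and 1327 CPM in NICD_mut against 1337 to 1506 CPM in NICD_wt. In the same test 24.8% of all tested genes were called lower and 23% higher. Epcam, an adhesion protein that stabilises Cldn7, was at -1.71 (SE 0.10), the splicing regulator Esrp1 at -1.58 (SE 0.11) and the protease St14 at -0.75 (SE 0.09). The keratin gene Krt8 was higher, at 0.73 (SE 0.11). Among 18 genes known to control claudins 9 passed as lower and 5 as higher, and their median was -0.33. Grhl2, a transcription factor of the collecting duct that drives Cldn4, was at -2.11 (SE 0.25), with 7.41 and 4.09 CPM in NICD_mut against 22.05 to 26.7 CPM in NICD_wt, while Cldn4 itself did not pass. Elf3, an epithelial transcription factor, rose by 0.74 (SE 0.12) and Zeb2, a repressor of epithelial genes, by 0.64 (SE 0.06).

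The genes most like a member were taken by the distance between log2 CPM profiles over the 5 libraries, each centred on its own mean, among 13425 genes or, for Cldn16, 13426. Nearest to Cldn19 was the loop potassium channel Kcnj1 (distance 1.27), followed by Sall3 and Six2. Nearest to Cldn16 were Slc16a5, Ros1 and R3hdml (0.62 to 0.76). In NICD_mut Cldn19 had 5 and 1 counts, Cldn16 2 and 6 and Kcnj1 5 and 0. The order of the genes nearest to Cldn19 and Cldn16 therefore depends on single counts. The third nearest to Cldn8 was Scnn1g (0.21), after Slc6a20b and Sgpp2. Nearest to Cldn2 were Tapbp, Galns and Inpp4b (0.09 to 0.12), to Cldn6 AB349717, St8sia1 and Ung (0.07 to 0.10), and to Cldn7 Vash1, Zfp983 and Plpp5 (0.03 to 0.05). Nearest to Cldn3 were Pcca, Efcab11 and Asphd2, to Cldn4 Scn8a, Napsa and Ptges, and to Cldn10 Sp6, Nucb2 and Tchh, each within 0.18. Among the members themselves the closest pair was Cldn3 and Cldn4 (0.51), while Cldn7 and Cldn8 of the same group were 2.51 apart. The next closest pairs joined different groups: Cldn10 and Cldn7 (0.55), Cldn10 and Cldn4 (0.57) and Cldn3 and Cldn6 (0.62). The loop claudins Cldn16 and Cldn19 were 4.34 apart.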

How the data were processed

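The authors deposited estimated counts per gene symbol and TPM, scaled for transcript length, for the same 5 libraries. The submitters' processing notes name Bowtie2, RSEM and the build mm10. Which versions, annotation and strand setting they ran is not given in the sources used here. The deposited estimated counts are whole numbers and were not rounded further.

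Columns were matched to samples by name. Counts were scaled with TMM factors (0.9964 to 1.005) and filtered with filterByExpr (minimum count 10, minimum total 15). NICD_mut was tested against NICD_wt without covariates with the quasi-likelihood test of edgeR 4.0.16 (robust) in R 4.3.3, with Benjamini-Hochberg adjustment over 15885 genes and a threshold of 0.05; SE is the fold change divided by the root of the F statistic. On simulated counts for 15673 genes it recovered 31.3% of 1.5-fold, 87.9% of 2-fold and 96.9% of 4-fold changes, and 5.33% of its calls were unchanged genes. The simulation gave every gene the same dispersion and changed only a small share of genes. In the data 47.7% of genes were called and spread differs between genes, so these rates do not measure the power of the real test. Alternatives used limma 3.58.1 and DESeq2 1.42.0; figures used matplotlib 3.10.9 in Python 3.11.15.

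The members and the gene lists were chosen with earlier results of these data known. All members were named; of the partner, epithelial and regulator lists the 4 genes with the smallest adjusted p, of other claudins those that passed, and for each tested member its 3 most similar genes (mean log2 CPM at least 1). Segment markers, Casr and Hnf4a given as examples were chosen after their values were seen. Coordinates are 1-based, from GENCODE M21 (mm10), and upstream sequences are RefSeq's (GRCm38.p6).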

Additional observations from a re-analysis of the deposited data

How the results depend on the processing

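The calls of the 9 tested members were the same in 15 or 16 of 16 alternatives: Cldn2, Cldn6, Cldn8, Cldn16 and Cldn19 passed in all 16, Cldn3 and Cldn7 in 15, and Cldn4 and Cldn10 in 0. The exception for Cldn3 and Cldn7 was a minimum change of 1.5-fold, with -0.80 and 0.38 below it; the members that rose then numbered 1 in place of 2, the genes called 998 higher and 697 lower in place of 3649 and 3934, and the tight junction partners 1 higher and 1 lower in place of 10 and 4. Cldn10, which passed nowhere, changed sign to -0.068 without NICD_mut 1, to -0.021 without NICD_wt 1 and to -0.20 without both; over single libraries left out it ran from -0.068 to 0.28. The other claudins that rose numbered 2 to 5 with single libraries left out (5 without NICD_mut 2) and 4 by limma on log2(TPM + 1), in place of 2, and those that fell numbered 2 without NICD_mut 1 and NICD_wt 1, in place of 1. Of these changes only the loss under a minimum fold has its cause in the construction of the test; the other causes were not tested. By CPM in place of TPM the members' share of all claudins was 61.9% in NICD_wt, against 64.7%. By limma on log2(TPM + 1) 60.7% of called genes were higher, against 48.1%, and with a pseudocount of 0.1 the median over all genes moved by 0.10 on the log2 scale. Samples share replicate numbers 1 and 2, with no label that pairs them. Deviations from group means correlated across genes with r = 0.33 between NICD_mut 1 and NICD_wt 1. Against NICD_wt 2 and NICD_wt 3 those of NICD_mut 1 gave -0.16 and -0.22. With 2 NICD_mut libraries the deviations of NICD_mut 2 are those of NICD_mut 1 with the sign reversed. Its values, 0.16 with NICD_wt 2 and 0.22 with NICD_wt 3, are therefore fixed by the others and say nothing further on pairing. With replicate number as a block 2 members rose and 5 fell, as without it, and 2654 genes were called higher and 2881 lower. Fits without a NICD_mut library assume that the lone one varies like the others. Depth limits Cldn14, and the size of the change in Cldn16 and Cldn19.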

Other observations

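RSEM's TPM divides by the mean transcript length of a gene, so counts over TPM, set against the library's median over 8065 well-measured genes, give a relative length of the transcripts in use. This measure was added after the data had been seen and carries no test. For Cldn10 it was 0.09 and 0.03 (log2) in NICD_mut and -0.05, -0.05 and -0.03 in NICD_wt, without overlap. The difference between the group means was 0.10, and the NICD_mut libraries themselves lay 0.064 apart. GENCODE lists Cldn10 transcripts of 1148 and 1031 bases from the first start and of 2128 bases from the second. For Cldn2 the same measure differed by 0.04 between groups, within a spread of 0.39 among the NICD_wt libraries, and for Cldn8, which has 1 transcript in GENCODE, it moved by at most 0.0032 within a group.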
